A study of Mus musculus with 12 samples.

Results

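Rtp4, Bst2, Ifitm3, Rsad2, Mx1, Mx2, Ifi44, Ifi27l2a, Samhd1 and Xaf1 are 10 interferon-induced genes, most of which encode proteins that block a step of viral infection. They were chosen by their log2 ratios of APP_WT to WT, a difference between transgenic and WT cells described below, and were followed in differentiated neurospheres of a transgenic mouse model of familial Alzheimer's disease through every array probe whose RefSeq identifier belonged to one of them. Matched probes were found for 8 of the 10 genes, 10 probes in all of the 55681 on the array. Of these probes 9 were expressed, meaning that in some comparison the scanner software judged one condition to be well above background on 3 or more of 4 arrays, and they represented all 8 genes. No probe matched Mx1 or Mx2, genes of the Mx family of dynamin-like GTPases, so both were not analysed here. The gene annotation of assembly GRCm38.p6 lists both as transcribed pseudogenes. In the series as a whole, 14330 of 20887 named genes had an expressed probe.

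Neural progenitor cells came from the telencephalon of C57BL/6 embryos on day 13 of gestation. Neurospheres grown from them were differentiated for 7 days without growth factors. WT neurospheres carried no transgene and were untreated. APP_WT neurospheres were untreated and came from mice with a human-mouse hybrid APP transgene bearing the Swedish mutation and a further mutant transgene. In these mice neurons of the brain are the cells meant to express the transgenes. BK_APP and HOE_APP neurospheres had the same transgenes and received bradykinin (BK) or HOE-140, a peptide analog of BK that blocks its B2 receptor, each at 1 µM on days 0, 3 and 6. WT neurospheres were given neither peptide, so the treatments were measured only on the transgenic background. Each of 3 comparisons, APP_WT against WT, BK_APP against APP_WT and HOE_APP against APP_WT, was measured on 4 two-color arrays, with the dyes exchanged on 2 of the 4. The series design names 4 samples of each condition, so the 4 APP_WT samples stand on the arrays of all 3 comparisons. The study's methods call the replicates independent and biological, and the labels do not name litters or cultures, so p-values measure the spread between these samples.

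Several facts of the arrays bear on all values. Between 48.1% and 56.0% of spots per array cleared the software's background test, and 1 spot was saturated over the 12 arrays. The arrays of APP_WT against WT lay on one slide and those of both treatments on another, so slide and comparison cannot be told apart, while each comparison lay within 1 slide. Arrays of opposite dye order correlated at 0.24 to 0.46 over probes for APP_WT against WT, but at −0.32 to −0.11 for BK_APP and −0.32 to −0.19 for HOE_APP. On the HOE_APP arrays one treatment is written on both channels. The direction used for them, HOE_APP over APP_WT, rests on the titles, the labels of the first channel and the layout of the BK_APP arrays, and is likely only. The probe for App differed between APP_WT and WT by 0.12 on the log2 scale (adjusted p = 0.0925 in limma), and whether it reads the hybrid transgene is unknown. Prnp, the prion protein gene, rose by 0.75 (adjusted p = 0.00581). Bdkrb1 and Bdkrb2, the kinin receptor genes, were not expressed by the rule above.

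Interferons bind cell surface receptors whose Janus kinases phosphorylate STAT proteins. STAT proteins and IRF9 then form a complex that binds interferon-stimulated response elements in the promoters of antiviral genes, whereas STAT dimers formed after interferon-gamma bind gamma-activated sites. The products act at successive steps of infection. Ifitm3 hinders the fusion of viral and endosomal membranes, Bst2 (tetherin) holds budding virions at the cell surface, Rsad2 (viperin) makes a nucleotide analog that stops viral RNA polymerases, and Samhd1 depletes the deoxynucleotides needed for reverse transcription. Xaf1 binds the apoptosis inhibitor XIAP, Rtp4 is a chaperone of G protein-coupled receptors that also restricts RNA viruses, and Ifi44 and Ifi27l2a are interferon-induced proteins of less settled function. In the brain, microglia, astrocytes and neurons can each induce such genes.

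Promoter windows are shown because the members differed in whether the core letters of those elements occur near the gene start. RefSeq windows of assembly GRCm38.p6 were held for Ifitm3, Bst2, Rsad2, Samhd1, Ifi44 and Xaf1 and were searched from 250 bases before to 50 after the start. The core of the interferon-stimulated response element, GAAA followed by any 2 bases and GAAA again, and that of the gamma-activated site, TTCNNNGAA, were searched on both strands, and matches of one may overlap those of the other. The response element core occurred in 3 of the 6 members' windows against 1131 of 32851 windows in all (3.44%), and the gamma-activated core in 3 of 6 against 2726 (8.3%). The windows of the 3 members with the response element core and of Xaf1, which held neither, are printed 5′ to 3′ on the gene's strand up to 30 bases past the start, with motif letters in capitals. Ifitm3 lies on the minus strand at chr7:141010715-141010994, Bst2 on the minus strand at chr8:71537443-71537722, Rsad2 on the minus strand at chr12:26456423-26456702 and Xaf1 on the plus strand at chr11:72301379-72301658.
Ifitm3: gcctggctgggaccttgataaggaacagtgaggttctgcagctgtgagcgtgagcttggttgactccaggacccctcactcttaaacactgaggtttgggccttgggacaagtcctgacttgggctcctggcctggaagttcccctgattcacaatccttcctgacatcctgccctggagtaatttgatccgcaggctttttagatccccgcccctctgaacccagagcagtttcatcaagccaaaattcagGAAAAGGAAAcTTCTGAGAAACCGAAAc
Bst2: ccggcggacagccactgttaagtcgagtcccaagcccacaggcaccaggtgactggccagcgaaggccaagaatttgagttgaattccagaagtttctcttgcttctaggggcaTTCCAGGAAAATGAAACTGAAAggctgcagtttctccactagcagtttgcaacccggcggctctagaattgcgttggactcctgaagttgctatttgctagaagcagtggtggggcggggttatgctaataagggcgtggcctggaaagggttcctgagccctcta
Rsad2: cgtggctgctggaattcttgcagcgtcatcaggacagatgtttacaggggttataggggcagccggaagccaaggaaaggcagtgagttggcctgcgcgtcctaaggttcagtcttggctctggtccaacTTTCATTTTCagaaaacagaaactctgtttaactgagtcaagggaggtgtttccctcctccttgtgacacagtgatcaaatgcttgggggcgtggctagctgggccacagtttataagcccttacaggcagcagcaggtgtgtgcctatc
Xaf1: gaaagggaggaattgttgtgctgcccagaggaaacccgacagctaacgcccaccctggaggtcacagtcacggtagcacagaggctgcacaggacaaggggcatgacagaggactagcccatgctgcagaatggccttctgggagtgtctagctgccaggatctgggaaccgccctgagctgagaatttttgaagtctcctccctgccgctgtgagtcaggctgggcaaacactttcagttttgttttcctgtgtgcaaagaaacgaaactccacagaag
In Ifitm3 the 2 response element cores began 3 and 20 bases after the start and the gamma-activated core lay between and overlapped the second. In Bst2 the 2 cores began 130 and 124 bases before the start, overlapped each other, and followed a gamma-activated core that began at 136 bases before it. The single core of Rsad2 lay on the opposite strand, from 120 to 111 bases before the start, so the capitals show its complement. Samhd1 held a gamma-activated core alone, and Ifi44 held neither. A match describes letters in these windows and is not a measured binding site.

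APP_WT was first set against WT, the comparison that asks what the transgenes change in untreated neurospheres. The members had been chosen with this comparison in view, so its values describe them and carry no test. All 8 genes had a positive mean log2 ratio of APP_WT to WT, with a median of 1.52 against 0.00 over all expressed probes. By limma's threshold 6 of the 8 were higher, where 11.6% of all expressed probes were, a count from which nothing is read. A bulk measurement cannot tell more cells of a type from more RNA per cell.

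**Figure D1:**
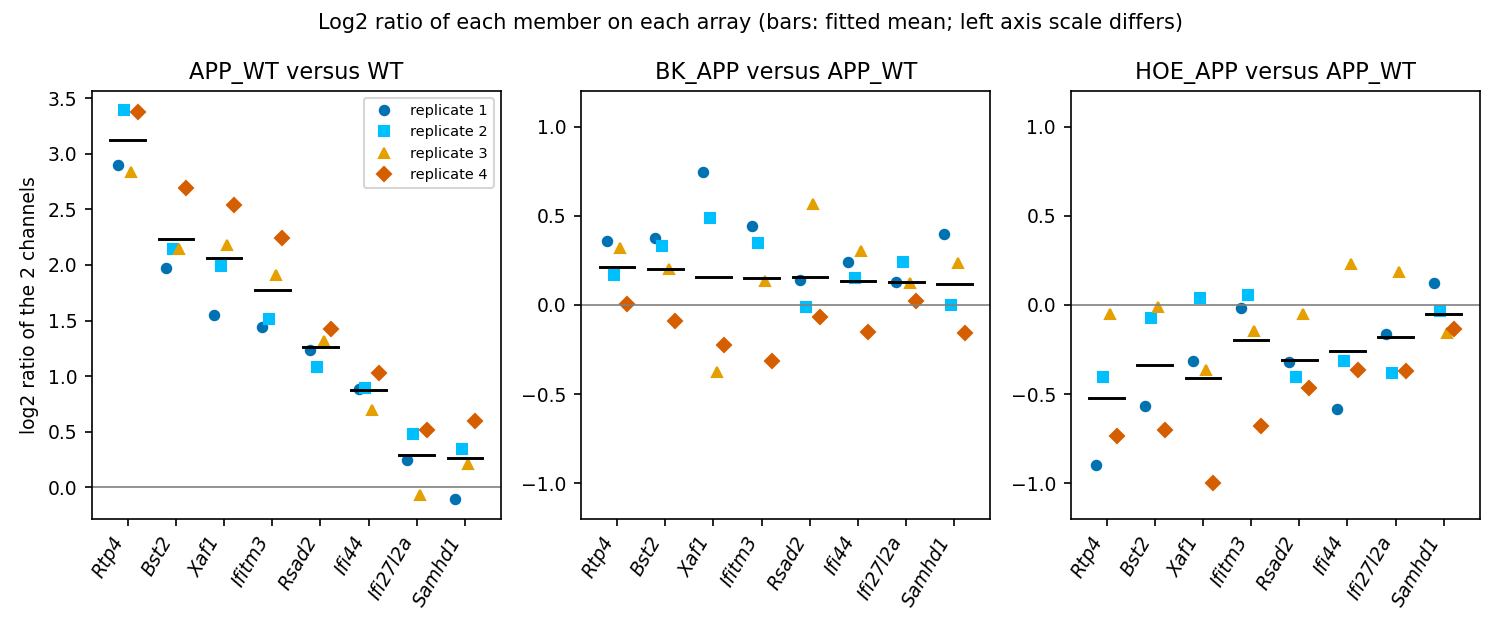
Log2 ratios of the 8 measured genes on each of the 4 arrays of the 3 comparisons, 1 point per array, with the mean of the limma fit. Rtp4, Bst2, Xaf1, Ifitm3, Rsad2 and Ifi44 lay above 0 on all 4 arrays of APP_WT against WT, while the ratios of both treatments lay between −0.997 and 0.74.

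Among the genes acting at membranes, the log2 ratios of Bst2 were 1.97, 2.15, 2.14 and 2.69 on replicates 1 to 4, a mean of 2.24 (SE 0.12, n = 4), or 4.71-fold. Its WT levels of 7.65 to 7.72 lay close together and below all 4 APP_WT levels, 9.64 to 10.34 on the same log2 intensity scale. Ifitm3 had ratios of 1.44, 1.51, 1.91 and 2.24, a mean of 1.78 (SE 0.09), or 3.42-fold. Its WT levels of 8.30 to 8.65 did not overlap the APP_WT levels of 9.81 to 10.80. The Ifitm3 probe was spotted 10 times per array, with an SD of 0.069 to 0.137 between the spots of an array.

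Among the genes acting on nucleotides, Rsad2 cleared the background test on none of the WT arrays and on all 4 in APP_WT. Of all expressed probes, 2.26% cleared it on none of the WT arrays. The ratios of Rsad2 were 1.24, 1.08, 1.32 and 1.42, and the difference was at least 2.40-fold. Samhd1 cleared background on every array and showed ratios of −0.11, 0.34, 0.21 and 0.60, a mean of 0.26 (SE 0.10), with WT levels of 9.73 to 10.20 overlapping APP_WT levels of 10.10 to 10.52. A second Samhd1 probe gave −0.0019, 0.73, 0.29 and 0.74, with a mean of 0.44 over all 4 that passed the threshold, and both probes were lowest on replicate 1.

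Among the remaining genes, Rtp4 had the highest ratios of the 8, at 2.89, 3.39, 2.83 and 3.38, a mean of 3.12 (SE 0.13), or 8.71-fold, which ranked 3 of 14330 genes. Its WT levels were 7.04 to 7.52 and its APP_WT levels 10.08 to 10.70, and WT cleared background on all 4 arrays. Xaf1 had ratios of 1.55, 1.99, 2.18 and 2.54, a mean of 2.07 (SE 0.11), or 4.19-fold, and cleared background in WT on 2 of 4 arrays. A second Xaf1 probe cleared background on no array in either channel. Ifi44 had ratios of 0.89, 0.89, 0.69 and 1.03, a mean of 0.88 (SE 0.10), or 1.83-fold, and cleared background on 1 of 4 WT arrays. Ifi27l2a cleared background on no WT array and for APP_WT on 1, and its ratios of 0.24, 0.48, −0.07 and 0.52 averaged 0.29 (SE 0.10).

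The 8 genes thus fell into 6 with ratios above 0 on every array, where 15.1% of all expressed probes were so, and Samhd1 and Ifi27l2a with 1 array below 0 each. The members just inside and just outside the threshold for a call were Ifi44 at 0.88 and Ifi27l2a at 0.29. A fit with the shared APP_WT sample as a signed block, added after the data were seen, put all 8 past the threshold. Leaving out 1 array moved Samhd1 and Ifi27l2a between passing and not. Samhd1 was 0.37 and passed without replicate 1, and was 0.15 without replicate 2 and 0.17 without replicate 4. Ifi27l2a was 0.44 and passed without replicate 3, and was 0.15 without replicate 4.

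**Figure D2:**
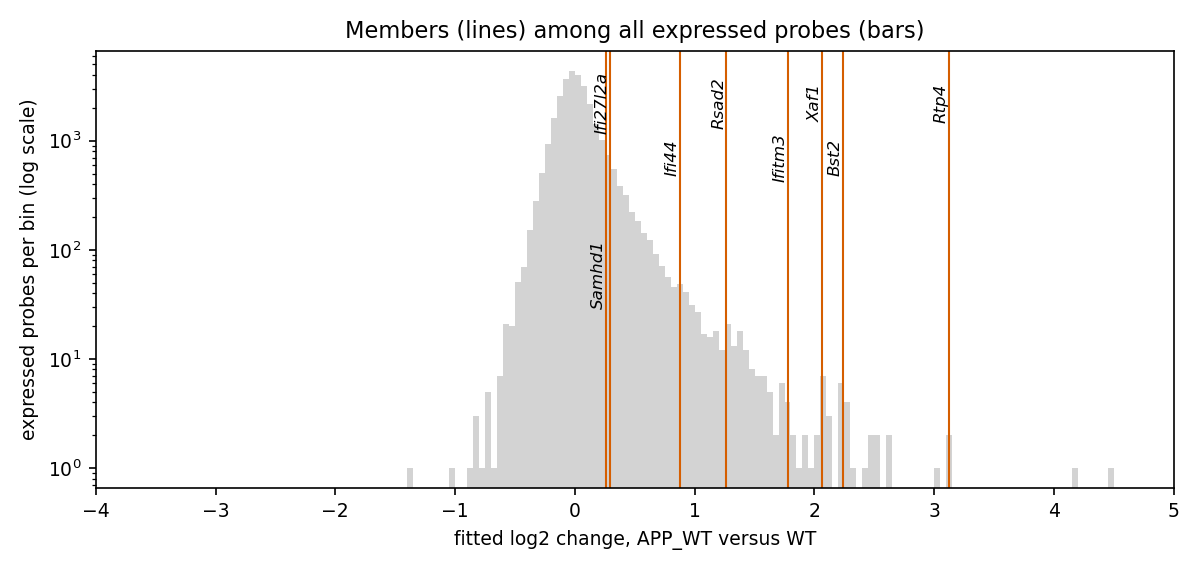
Histogram of the fitted log2 change in APP_WT against WT over the 29361 expressed probes, with the number of probes per bin on a log axis, and lines at the 8 members. The lines run from 0.26 for Samhd1 to 3.12 for Rtp4, with all 8 on the positive side of the histogram's center at 0.00.

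**Figure D3:**
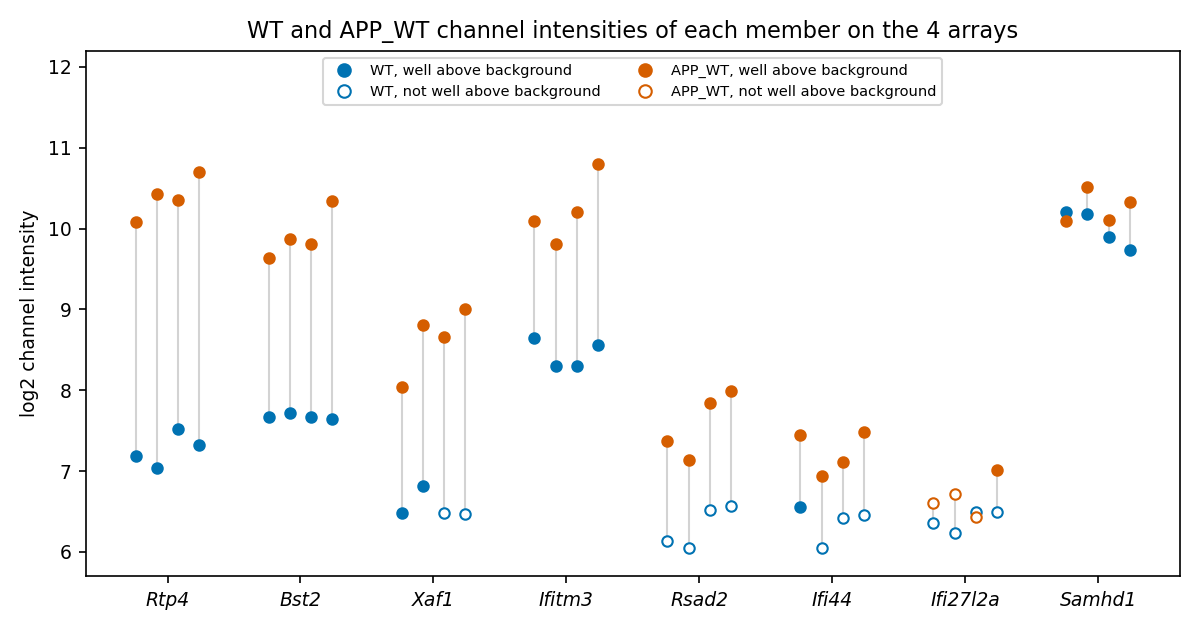
Log2 channel intensity of each gene in WT and APP_WT on the 4 arrays of that comparison, in order of replicate number, with a line joining the channels of an array and open points where the signal was not well above background. WT and APP_WT points of Rtp4, Bst2, Xaf1, Ifitm3, Rsad2 and Ifi44 do not overlap, as chosen from this comparison, against 6.76% of expressed probes with all APP_WT above all WT levels, and those of Samhd1 and Ifi27l2a do.

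For the dimmer genes the size of the difference depended on how background was handled. With the scanner's processed signals, from which background had been subtracted outright, Rsad2 gave 3.10, Xaf1 3.94 and Ifi44 2.59 on the log2 scale, in place of 1.26, 2.07 and 0.88. Ifi27l2a gave 1.08 in place of 0.29. The brighter genes moved less, to 3.81 for Rtp4, 2.70 for Bst2 and 1.96 for Ifitm3, and Samhd1 stayed at 0.26. Xaf1 then stood above Rtp4, so the order of the genes rests on the background correction.

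Relatives of the members were counted from a fixed list, of which 6 of 14 were expressed. In the limma fit 5 of the 6 rose in APP_WT, where 11.6% of all expressed probes did, with no gene lower. Ifi27, of the same family as Ifi27l2a, rose by 1.87 (adjusted p = 3.66e-07), and Cmpk2, a nucleotide kinase gene next to Rsad2, rose by 0.68 (adjusted p = 4.11e-05). Ifitm2 rose by 0.54, Ifitm6 by 0.31 and Ifitm7 by 0.17, each less than Ifitm3. Rtp2 differed by 0.06 (adjusted p = 0.552). Ifitm1, Ifitm5, Ifitm10, Rtp1, Rtp3, Ifi44l and Ifi27l2b had a probe that was not expressed, and no probe matched Ifi27l1. Cross-hybridization among the closely related Ifitm genes was not tested.

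The rest of the interferon pathway was counted by role. Of 67 genes listed, 59 were expressed, and 43 rose in APP_WT, 1 fell, and the median log2 change was 0.54. By the same threshold 11.6% of all expressed probes rose and 7% fell. Among ligands 1 of 4 rose, Ifng by 0.36 (adjusted p = 0.0104), while Ifna1 differed by −0.11 and Ifnb1 was not expressed. Among receptors and kinases 3 of 7 rose, Ifngr1 by 0.66 and Ifngr2 by 0.38 among them, and Jak2 fell by 0.21 (adjusted p = 0.0142). Of the transcription factors 5 of 7 rose, Irf1 by 1.25, Irf8 by 0.94, Irf9 by 0.60 and Stat2 by 0.46 among them. Of the sensors of viral nucleic acid 5 of 11 rose, among them Ddx58 (RIG-I) by 1.05 and Ifih1 (MDA5) by 1.00. Of the other effectors 24 of 25 rose, led by Oasl2, a protein of the 2′-5′ oligoadenylate synthetase family, at 3.05 (adjusted p = 5.33e-07) and the guanylate-binding protein gene Gbp3 at 2.46. All 5 feedback inhibitors rose, including Usp18, which removes ISG15 from proteins, by 1.44 and the phosphatase gene Ptpn6 by 0.87. The list was chosen with earlier results known, so these counts are a description, and the 4 expressed ligands are too few to rank against other roles.

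Most markers of microglia, macrophages and astrocytes rose along with these genes, while those of other cell types were mixed or did not rise. Of 16 microglia and macrophage markers 14 were expressed, and 13 of them rose in APP_WT, where 11.6% of all expressed probes did. Their log2 changes had a median of 1.49 and a range of 0.11 to 2.31. Cx3cr1 rose by 2.31 and Aif1, which encodes Iba-1, by 2.21. The summed linear intensity of the 13 markers measured on every array was 9822 to 12017 in WT and 13983 to 17902 in APP_WT. Such a sum is weighted toward the brightest markers, whereas the median log2 change weighs each marker alike. Adgre1 cleared background on no WT array, and Tmem119, Tyrobp, Trem2 and Ptprc on 1 each. P2ry12 was not expressed and no probe matched Cd68. Array medians of the microglial markers were 1.69, 1.45, 1.42 and 1.37 on replicates 1 to 4, and those of the members 1.34, 1.30, 1.61 and 1.83. The microglial median was thus highest on replicate 1 and the member median on replicate 4. Of 6 astrocyte markers 5 rose, with a median of 0.37, and of 8 neuronal markers 2 rose and 2 fell. Of 5 neural progenitor markers 2 rose and 2 fell. Their summed linear intensity was 44253 to 57770 in WT and 61951 to 74891 in APP_WT, so this sum rose as well. Of 6 oligodendrocyte lineage markers 0 rose and 1 fell, and of 5 pericyte and fibroblast markers 0 rose and 3 fell. Of 2 expressed endothelial markers 1 rose. The part of these cell types in the result was not tested.

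BK_APP was compared with APP_WT to ask whether added BK moves the same genes further. On average all 8 genes were slightly higher in BK_APP, with a median of 0.15 that was 0.07 without replicate 3 and 0.26 without replicate 4, but none passed the test. Their limma adjusted p was 0.967 each, and none had an unadjusted p below the 0.05 threshold, where 2 did without replicate 4. No probe of 29361 (0%) passed either, with 1311 (4.47%) at an unadjusted p below it. The methods' combination of SAM and rank products passed 1 member, Rtp4, and 379 probes.

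Rtp4 had BK ratios of 0.36, 0.17, 0.32 and 0.01, a mean of 0.21 with a 95% interval of −0.09 to 0.51. Bst2 had 0.38, 0.33, 0.20 and −0.09, and Ifitm3 0.44, 0.35, 0.13 and −0.32. Xaf1 changed sign with the dye order, at 0.74 and 0.49 on replicates 1 and 2 and at −0.38 and −0.23 on replicates 3 and 4. Rsad2 was highest on replicate 3, with 0.14, −0.01, 0.56 and −0.07, and its mean was −0.0036 without replicate 3. Ifi44 had 0.24, 0.15, 0.30 and −0.15, and Samhd1 0.40, 0.00, 0.24 and −0.16, both below 0 on replicate 4. Only Rtp4 and Ifi27l2a lay above 0 on all 4 arrays, 2 of 8 genes, where 5.06% of expressed probes did so. Ifi27l2a passed the rule for expression only through BK_APP, on 3 of 4 arrays, so its place in this count is a description. The microglial markers were higher for 11 of 14, with a median of 0.16 and none called. Of them 5 had an unadjusted p below 0.05, where 2.1% of expressed probes were higher by that rule. Cx3cr1, C1qb, Tyrobp, Trem2 and Adgre1 belong to a list drawn from this comparison, so the marker counts are a description.

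HOE_APP was compared with APP_WT to ask whether blocking the B2 receptor moves them back. Bst2 and Rsad2 belong to a list drawn from this comparison, so their values here are a description. On average all 8 genes were lower in HOE_APP, with a median of −0.29, and none passed the test, with limma adjusted p from 0.924 to 0.981. Without 1 array the median ranged from −0.14 (without replicate 4) to −0.41 (without replicate 3). At an unadjusted p below 0.05 stood 5 of the 8, namely Rtp4, Xaf1, Rsad2, Bst2 and Ifi44, where 2.72% of expressed probes were lower by that rule. Of the 5, 3 remained without replicate 1 (Rtp4, Xaf1 and Rsad2) and 1 without replicate 4 (Rtp4). No probe of 29361 passed after adjustment and 1476 (5.03%) did before it. SAM with rank products passed 4 members, Rtp4, Bst2, Rsad2 and Xaf1, and 486 probes. If the labels of the second channel were right, every sign in this comparison would turn.

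Rtp4 had HOE ratios of −0.90, −0.40, −0.05 and −0.73, a mean of −0.52 with a 95% interval of −0.82 to −0.22. Bst2 had −0.57, −0.07, −0.01 and −0.70, and Rsad2 had −0.32, −0.40, −0.05 and −0.47. These 3 genes were below 0 on all 4 arrays, where 4.98% of expressed probes were, with replicate 3 close to 0 in each. Xaf1 had −0.32, 0.04, −0.37 and −0.997 and Ifi44 −0.58, −0.32, 0.23 and −0.36, so each crossed 0 on 1 array. Ifitm3, at −0.02, 0.06, −0.15 and −0.68, moved mainly on replicate 4. Ifi27l2a averaged −0.18, and Samhd1 −0.05 by one probe and 0.09 by the other. HOE_APP levels of Rtp4, 9.30 to 10.35, were all above the WT levels of 7.04 to 7.52, although these were measured on different arrays. The 25 other effectors were all lower in HOE_APP, 15 at an unadjusted p below 0.05, with a median of −0.20. The 14 microglial markers were all lower with a median of −0.08 and 1 at that threshold, where 2.72% of expressed probes were lower. All 6 astrocyte markers were lower too, with a median of −0.11 and 2 at that threshold, and of 8 neuronal markers 4 were lower and 4 higher. Ifit1, Ifit3, Isg15, Gbp5 and Cx3cr1 belong to the list drawn from this comparison, so the counts of effectors and microglial markers are a description too.

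**Figure D4:**
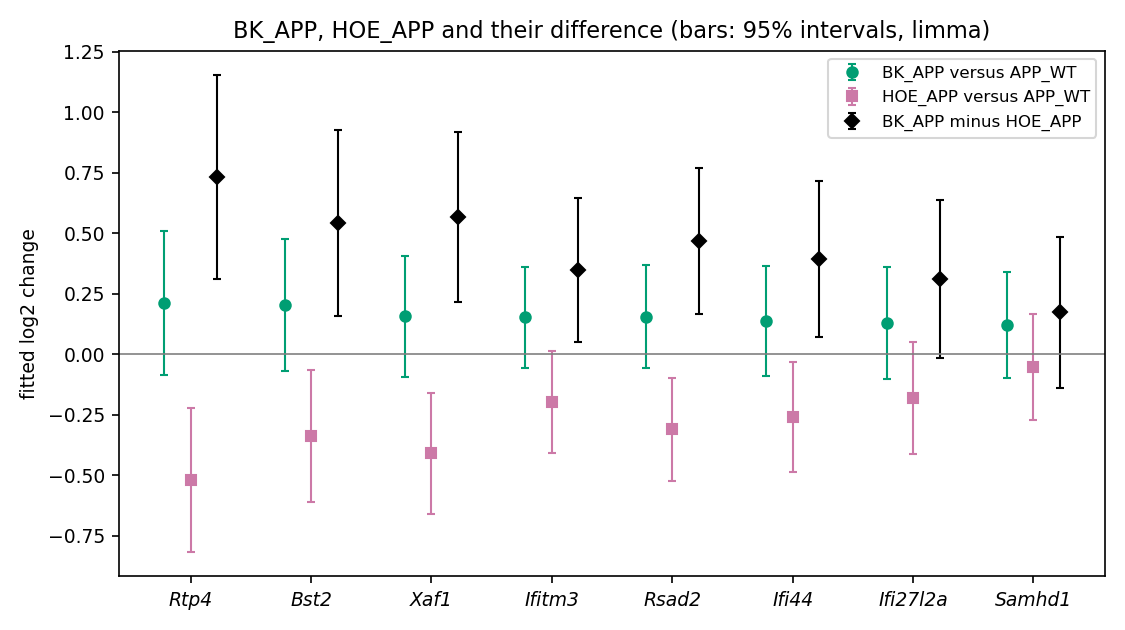
Fitted log2 change of each gene in BK_APP and in HOE_APP against APP_WT and the difference of both, with 95% intervals of the limma fit, n = 4 arrays each. The BK_APP estimates lie between 0.12 and 0.21 and the HOE_APP estimates between −0.52 and −0.05, and the differences between 0.17 and 0.73. The intervals of the differences ignore the APP_WT samples that both treatments share.

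BK and HOE-140 were given at the same concentration and on the same days, and their ratios were compared within the model. Ratios of one replicate number share an APP_WT sample, and the model has no term for this pairing. Within one dye order, differences between numbered ratios correlated at 0.42 and 0.43 between the treatments. The intervals and p-values given here ignore this pairing. The difference, BK_APP minus HOE_APP, was positive for all 8 genes, with a median of 0.43. None passed after adjustment (limma adjusted p = 0.999995 for each member), while 6 had an unadjusted p below 0.05, where 1.2% of expressed probes were higher by that rule. Among the 6 are Bst2 and Rsad2, from the list drawn from HOE_APP against APP_WT. Rtp4 differed by 0.73 (95% interval 0.31 to 1.16), Xaf1 by 0.57 (0.21 to 0.92), Bst2 by 0.54 (0.16 to 0.93) and Rsad2 by 0.47 (0.16 to 0.77). Ifi44 differed by 0.39 and Ifitm3 by 0.35, and the intervals of Ifi27l2a (−0.02 to 0.64) and Samhd1 (−0.14 to 0.48) included 0. With the HOE_APP sign turned, the median difference was −0.13, 7 of the 8 genes were negative and 0 had an unadjusted p below 0.05, so its direction depends on the labels named above. Of all 29361 probes, 0 passed after adjustment and 733 (2.5%) before it.

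Both treatments were measured against the APP_WT samples that also stood in the first comparison, and those samples differed among themselves. The APP_WT level was highest in replicate 4 for 7 of the 8 genes in each of the 3 comparisons. The exception was Samhd1 on the arrays with WT and BK_APP and Rsad2 on those with HOE_APP, both highest in replicate 2. For Bst2 the APP_WT levels of replicate 4 were 10.34, 10.16 and 10.20 on the arrays with WT, BK_APP and HOE_APP, against 9.64, 9.68 and 9.70 for replicate 1. For Bst2, Xaf1 and Samhd1 the SD between samples exceeded the largest range within one sample, at 0.24 against 0.18 for Bst2. For the other 5 genes this SD was below the largest range within one sample, from 0.27 against 0.32 for Rtp4 to 0.16 against 0.88 for Rsad2. An SD and a range are unlike measures, so an SD below the range does not make the samples the less variable. The sample means ran from 10.17 to 10.74 for Rtp4 and from 7.64 to 7.99 for Rsad2. The ratio of APP_WT to WT was highest on replicate 4 for 7 of the 8 genes, and that of BK_APP to APP_WT was lowest there for 7. In HOE_APP the ratio was lowest on replicate 4 for 4 genes. Ratios of the 3 comparisons are therefore not independent of each other.

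**Figure D5:**
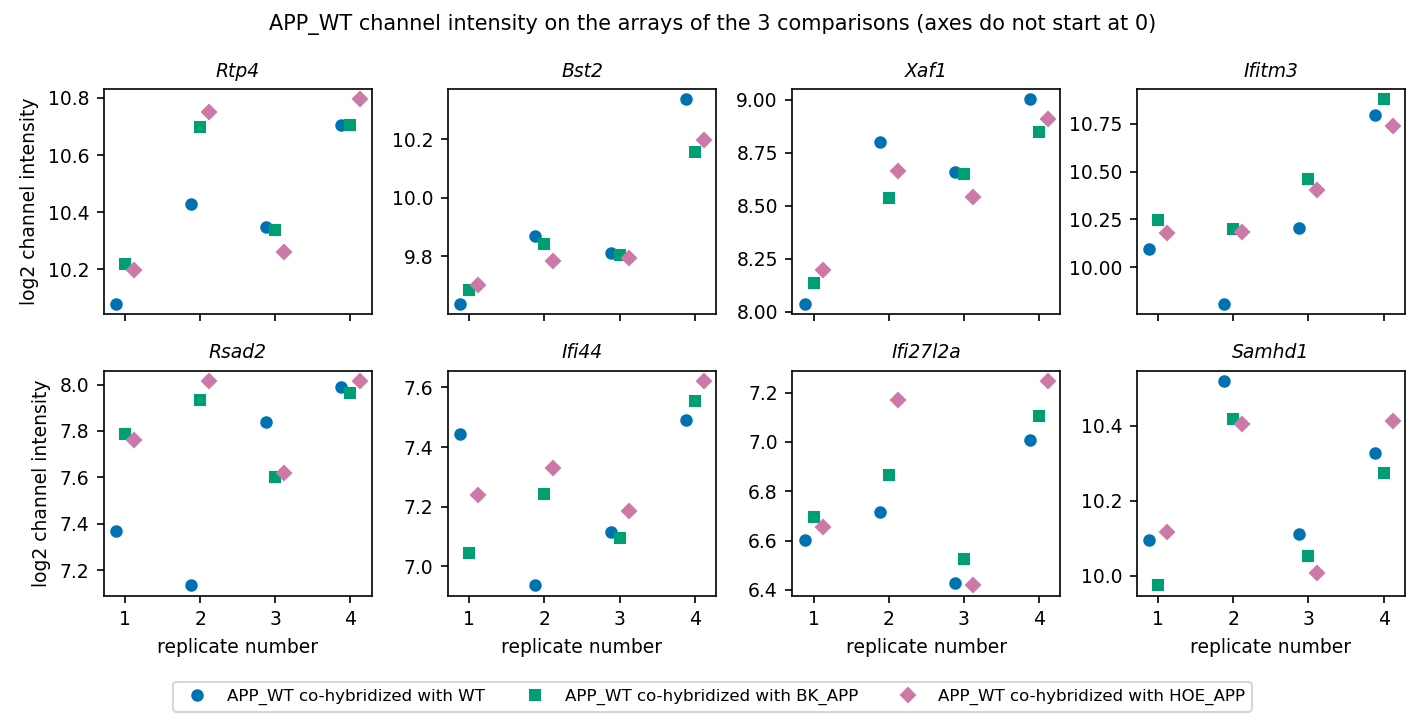
Log2 intensity of each gene in the 4 APP_WT samples by replicate number, 1 point for each of the 3 comparisons in which the sample was hybridized. Replicate 4 lies highest for 7 of 8 genes in each comparison, with Samhd1 or Rsad2 as the exception.

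Within the 8 arrays of treated neurospheres, the log2 ratios of Bst2 correlated with the mean of the other members at r = 0.96, those of Rtp4 at 0.89, Ifitm3 and Ifi44 at 0.81, Ifi27l2a at 0.77, Rsad2 at 0.74, Xaf1 at 0.69 and Samhd1 at 0.57. The non-member genes most like the members' mean over these 8 arrays were Psmb8 (r = 0.987), Cmpk2 (0.986), Ifi27 (0.984), B2m (0.983) and Ccl4 (0.981), which encode an immunoproteasome subunit, a nucleotide kinase, an interferon-induced protein, the light chain of MHC class I and a chemokine. The 8 arrays share 4 APP_WT samples and fall into 2 treatments, so these values are descriptions. Over all 12 arrays, which set the APP_WT against WT arrays apart from the rest, the most alike genes were Ifi27, Gbp2, Oasl2, Ifit3b and Acod1. Ifi27 stood in both lists. With the HOE_APP sign turned, an alternative added after the data were seen, Ifi27, B2m and Cmpk2 remained among the 5 most alike over the 8 arrays, while r was 0.832 for Psmb8 and 0.701 for Ccl4. The members' own r then ran from 0.91 for Bst2 to 0.28 for Samhd1.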

How the data were processed

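Total RNA (100 ng) was amplified, labeled with Cy3 and Cy5 and hybridized to 12 two-color Agilent arrays. Scanner output deposited by the authors holds, for every spot, the raw median intensity and local background in both channels, together with processed intensities after background subtraction and dye balancing by the software. The deposited log10 ratio is that of processed red over green. A matrix of log2 ratios, 1 column for every array, was deposited by the authors too, normalized by a method not given in the sources used here. It correlated with the scanner's ratios at r above 0.99 and had the sign used here. No column of per-sample values was left unused (0). The file headers name Feature Extraction 11.0.1.1, which differs from the version in the methods.

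Median signals were corrected by normexp (offset 50) and normalized by loess (span 0.3, weight 0 for control and uneven spots) in limma 3.58.1 (R 4.3.3), and spots of a probe were averaged. The number of arrays limits the precision. Genes were named by RefSeq identifiers through a table of assembly GRCm38.p6, used for names only. The expressed probe with the highest mean intensity stood for a gene. A single limma model gave every comparison its mean and its dye term over 29361 expressed probes (6 residual and 4.56 prior degrees of freedom). Tests were two-sided with Benjamini-Hochberg adjustment and a threshold of 0.05. The model was tested on simulated data. Where a dim condition was not well above background on any array, the fold is a lower bound, the mean of the bright condition against the dim condition's higher value of its own signal or the lowest signal well above background on that array.

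The 10 members, the relatives, the interferon genes by role, the cell type markers, the transgene and receptor genes, and the rule for genes most alike (5 by correlation over 12 and over 8 arrays) were chosen with earlier results of these data known. Up to 2 genes per role were to be named by size, and Jak2, Irf9 and Stat2 were added after their values were seen. Some listed items are not reported here. Because the series design names 4 APP_WT samples, replicate numbers were checked for pairing: within one dye order, differences between APP_WT levels of numbered samples correlated at 0.28 to 0.61 between comparisons in 6 of 6 pairs over 29361 probes, so the numbers pair the samples. Alternatives were SAM with rank products, other background corrections, normalizations and filters, the deposited table, the HOE_APP sign turned, a replicate block and leaving out each array. Figures were drawn with matplotlib 3.10.9.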

Additional observations from a re-analysis of the deposited data

How the results depend on the processing

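Of the values recomputed for single members under the alternatives, 436 kept direction and side of the threshold, 17 reversed and 4 passed it, and of the medians and counts 216 were stable, 23 moved and 2 reversed. The median member change in APP_WT against WT was 2.64 with the processed signals, 2.70 with the deposited table (7 members), 1.83 with a normexp offset of 16 and 1.78 under a stricter filter, which drops Ifi27l2a, in place of 1.52. The median of BK_APP minus HOE_APP was 0.75 with the processed signals, 0.74 with the deposited table and −0.13 with the HOE_APP sign turned. With that sign turned the HOE_APP median was 0.29, with Rtp4 at 0.52, Xaf1 0.41, Bst2 0.34, Rsad2 0.31, Ifi44 0.26, Ifitm3 0.20, Ifi27l2a 0.18 and Samhd1 0.053, and BK_APP minus HOE_APP was −0.31 for Rtp4, −0.25 for Xaf1, −0.16 for Rsad2, −0.14 for Bst2, −0.12 for Ifi44, −0.053 for Ifi27l2a and −0.045 for Ifitm3. Median centering put Samhd1 in HOE_APP at 0.062, and Rsad2 in BK_APP was −0.0036 without replicate 3.

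SAM with rank products passed 1 member, 5 pathway genes and 379 probes for BK_APP, 4, 13 and 486 for HOE_APP, and 2732 probes for APP_WT against WT, where limma passed 5446. Fitting that comparison alone without a dye term passed 1834. The signed replicate block passed 8265 probes there and 3 for HOE_APP. It took Ifi27l2a (adjusted p = 0.0122) and Samhd1 (adjusted p = 0.0126) past the threshold and changed no other member's call. The planned replicate block passed 6 members, 42 pathway genes and 4170 probes for APP_WT against WT and 0 probes for either treatment. Leaving out 1 array gave 0 to 62 probes for BK_APP (62 without replicate 1, 2 without replicate 2 or 4), 0 to 9 for HOE_APP (9 without replicate 4) and 0 to 13 for BK_APP minus HOE_APP (13 without BK_APP replicate 1, 2 without BK_APP replicate 2, 6 without HOE_APP replicate 4), and members passing numbered 6 to 7 for APP_WT against WT and 0 otherwise. The cause of these differences was not tested. SAM was not run for BK_APP minus HOE_APP. Signal near background limits Rsad2, Xaf1, Ifi44 and Ifi27l2a, whose changes moved by over 1.5 times with the processed signals.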
